A study of Caenorhabditis elegans with 10 samples.

Results

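Pseudogenes are gene copies that carry stop codons, frameshifts or missing parts and are annotated as not making the protein of the gene they came from. In Caenorhabditis elegans many derive from large, fast-changing families such as the chemoreceptors and the F-box genes, and a number of them are still transcribed. Their RNA can be removed by nonsense-mediated decay, which destroys transcripts with an early stop codon, and by small RNAs bound to Argonaute proteins. Here the pseudogenes were the genes with that biotype in the tables of the 2 time points, with at least 10 normalized counts in 1 or more of the 4 columns. Pseudogenes on chromosome V from 2000001 to 4000000 were not analysed here, while the shares over all genes and over coding genes include that region. Of 22554 listed genes, 1201 were pseudogenes, 58 of them in the region left out and 484 under the minimum, which left 659.

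RNA came from whole worms of GMC101, which makes human Aβ1-42 in body wall muscle from the unc-54 promoter with the unc-54 3′-UTR, and of CL2122, which carries the unc-54 vector without Aβ. Both strains carry mtl-2:GFP, a green fluorescent protein in the intestine. Worms of each strain were kept at 25°C for 8 h or 24 h. Of each strain, 2 samples at 8 h and 3 at 24 h are labeled, with the stage given as L1, while the methods describe young adults. The deposited tables hold 1 value per gene, strain and time, so no difference below has a replicate check. The 4 columns held 20533034 reads on genes in GMC101 and 22520669 in CL2122 at 8 h, and 25283085 in GMC101 and 24583097 in CL2122 at 24 h. Markers of oocytes and eggshell, which adults make, a list of 16, summed to 10674 counts per 1000000 reads on genes (CPM) in GMC101 and 10059 in CL2122 at 8 h. The Aβ transgene was not measured here.

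A gene was counted as higher or lower in GMC101 when the ratio of normalized counts went beyond 2-fold (1 on the log2 scale) and its 95% interval excluded no difference. The interval is the exact Clopper-Pearson interval of the GMC101 share of the gene's reads, and it covers counting error only, not the spread between worm cultures. "Rose" and "fell" below refer to this cut-off. Such calls compare the 2 columns, not the strains as populations. Where a strain had 0 reads it was set at 3 reads and the fold is a bound.

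The 659 pseudogenes together took 0.450% of all GMC101 reads and 0.452% of all CL2122 reads at 8 h. At 24 h the share was 0.475% in GMC101 and 0.566% in CL2122. They were low, with a median of 0.871 reads per kilobase and per 1000000 reads (RPKM) in GMC101 and 0.911 in CL2122 at 8 h, against 5.97 and 5.89 RPKM for protein-coding genes in the same columns. At 24 h the median pseudogene was at 1.18 RPKM in GMC101 and 1.95 in CL2122. The median coding gene was then at 4.54 RPKM in GMC101 and 5.93 in CL2122. The 10 members with the most reads held 43.1% to 55.2% of all pseudogene reads in a column. Without them the rest summed to 2019 CPM in GMC101 and 2107 in CL2122 at 8 h, and to 2314 in GMC101 and 3218 in CL2122 at 24 h. The minimum was met in all 4 columns by 318 members, in 3 by 81, in 2 by 153 and in 1 only by 107. C09F9.7 and Y73B6BL.28 stood just inside it, each with 10.4 normalized counts in its highest column, and T07G12.14 (9.66) and srx-15 (9.49) just outside.

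By position, 183 members lay on chromosome V, 140 on IV, 129 on II, 87 on I, 68 on III and 52 on X. For 652 of the 659 the deposited start and end were those of the Ensembl WBcel235 annotation (release 115), where 655 are still pseudogenes, 3 are protein-coding (plg-1, Y48G1BM.6 and F45B8.5) and 1 is a lincRNA. Their exonic length had a median of 1013 bases, against 1147 for listed coding genes. The nearest coding gene lay at a median distance of 701 bases. Overlaps were sought with all annotated genes except those of Piwi-bound small RNAs. Exons of 577 members overlapped no other exon so searched, those of 35 overlapped one on the same strand, and those of 47 only one on the other strand. Whether the counting used strand is not given in the sources used here, so reads of such overlapping pairs cannot be told apart. Near-identical copies elsewhere in the genome can also share reads with their coding relatives, and this was not tested for any member. The symbols of 493 members were sequence names only. The rest included 57 F-box, MATH and BTB members, which bear the domains of ubiquitin ligase adaptors, 31 chemoreceptors, 12 C-type lectins, 6 nuclear hormone receptors and 2 Argonautes.

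The highest pseudogenes were germline or small-RNA relatives and unnamed genes, and most of them differed little between the strains. F07H5.5 (WBGene00014309, chromosome II from 8787770 to 8789716) was the top member in every column, with 891 CPM in GMC101 and 937 in CL2122 at 8 h, and 1146 in GMC101 and 1194 in CL2122 at 24 h. Its mean over the 4 columns was 657 RPKM. ZC513.7 (chromosome V from 8039469 to 8040387) followed at a mean of 374 RPKM, and its exons overlap algn-12 on the other strand. prg-2, a copy of the Piwi Argonaute gene prg-1, had 345 CPM in GMC101 and 327 in CL2122 at 8 h, and 224 in GMC101 and 254 in CL2122 at 24 h. Its log2 ratio was 0.05 at 8 h and 0.01 at 24 h, with intervals of -0.00 to 0.09 and -0.05 to 0.06. wago-2, a relative of the worm-specific Argonautes, had 280 CPM in GMC101 and 281 in CL2122 at 8 h, and 278 in GMC101 and 194 in CL2122 at 24 h. The 24 h log2 ratio of wago-2 was 0.71 (0.66 to 0.77), under the cut-off. puf-10, of the Pumilio RNA-binding family, had log2 ratios of 0.18 at 8 h and 0.35 at 24 h. The neighbors Y102A5C.5 and Y102A5C.6 on chromosome V were lower in GMC101 at 8 h, with log2 ratios of -1.06 and -1.25, and at 24 h these were 0.14 and 0.09. F07H5.3 and F56D5.4 passed at neither time, with 24 h log2 ratios of 0.68 and 0.04.

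At 8 h the pseudogenes outside the chromosome V region left out differed in both directions in similar numbers. Of 466 with the minimum in 1 or both strains, 33 were higher in GMC101 (7.08%) and 31 lower (6.65%), against 2.38% higher and 4.23% lower among all 15281 genes tested (6.61% in either direction). These shares of all genes include the chromosome V region left out of the pseudogenes. With that region kept, 33 of 485 pseudogenes were higher (6.80%) and 42 lower (8.66%). The median log2 ratio was -0.01 over the 466 pseudogenes and 0.00 over all genes. Of the 466, 46 met the minimum in GMC101 only and 30 in CL2122 only, and such members had to differ. Over the 390 with the minimum in both strains, 21 were higher and 21 lower, or 5.38% each, against 1.37% and 3.17% of all genes so filtered. Low genes pass a fold cut-off more often, so the shares were also set beside coding genes of the same level. Between 10 and under 20 normalized counts, 8 of 100 pseudogenes were higher and 6 lower, against 8.29% and 8.05% of coding genes. Between 50 and under 200, 7.64% were higher and 4.46% lower, against 2.38% and 6.16%.

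Among the rises at 8 h were 3 C-type lectin copies, a family of sugar-binding proteins several of which act in intestinal defense. clec-236 had 5.16 CPM in GMC101 and 1.38 in CL2122, a log2 ratio of 1.87 (1.28 to 2.50). clec-152 had 59 reads in GMC101 against 27 in CL2122, a log2 ratio of 1.23 (0.55 to 1.94). clec-69 had 34 reads in GMC101 against 1 in CL2122, a log2 ratio of 5.19 with a wide interval of 2.61 to 10.53. Of the 6 C-type lectin pseudogenes tested, 3 were higher and 0 lower, and of the 5 with the minimum in both strains 2 were higher. Coding C-type lectins had 22 higher and 10 lower of 121, or 18.2% and 8.26%. The largest rise was that of C25D7.2 (chromosome V from 15037795 to 15038835), which had 51 reads in GMC101 against 1 in CL2122, a log2 ratio of 5.77 (3.23 to 11.10). Y39B6A.21, a neighbor of the protease gene asp-1, had 16.6 CPM in GMC101 and 6.97 in CL2122, a log2 ratio of 1.21 (0.94 to 1.50). C38D9.5, W03D8.10, Y69A2AR.14 and F47H4.12 rose by 1.17 to 1.39 on the log2 scale.

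Among members with at least 50 normalized counts, the largest fall at 8 h was that of lips-14, a copy of the lipase-related genes. It had 1.12 CPM in GMC101 and 6.04 in CL2122, a log2 ratio of -2.46 (-3.17 to -1.82). F45D11.1 had 1.17 CPM in GMC101 and 5.95 in CL2122, a log2 ratio of -2.38 (-3.07 to -1.75). K02E7.6 had 4.92 CPM in GMC101 and 12.6 in CL2122, a log2 ratio of -1.39 (-1.73 to -1.06). F45D11.1 and K02E7.6 lie on chromosome II beside BTB genes, F45D11.1 165 bases from btb-11 and K02E7.6 382 bases from btb-10. Those coding neighbors did not pass at 8 h, with log2 ratios of 0.10 and 0.49. Y71A12B.19, K08E7.10, F25C8.1 and AC8.1 fell by 1.77, 1.34, 1.32 and 1.25 on the log2 scale.

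**Figure D1:**
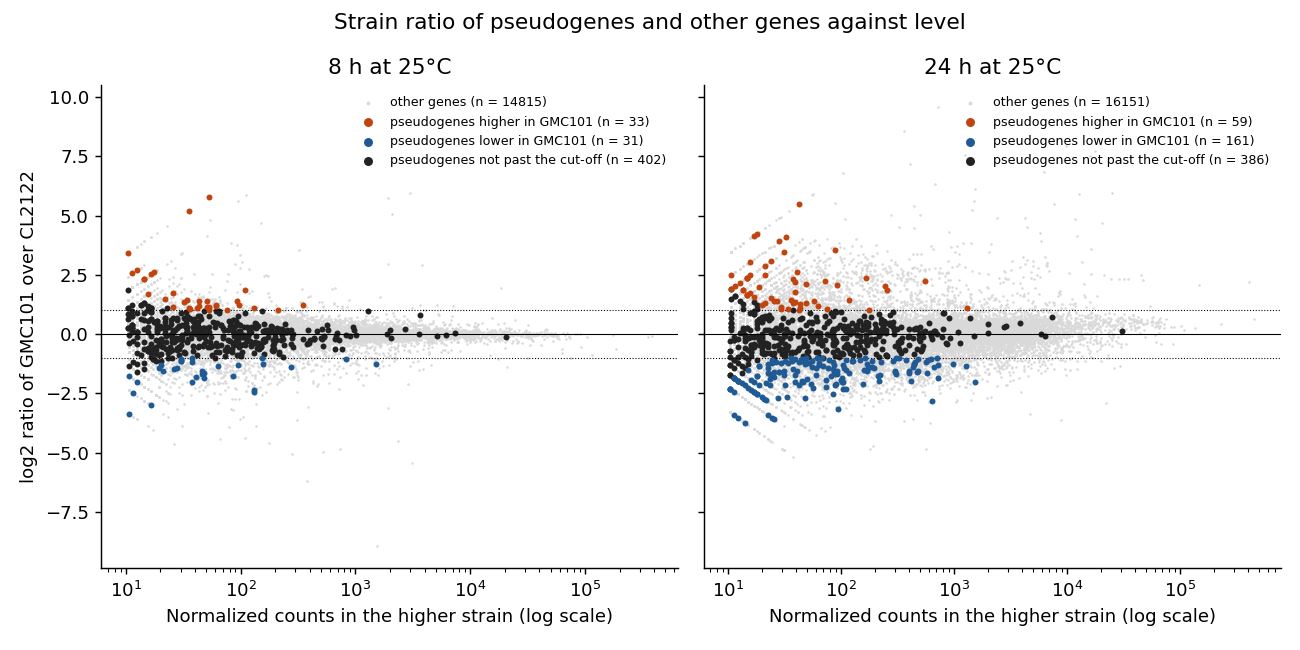
Log2 ratio of GMC101 over CL2122 for each gene (vertical axis) against its normalized counts in the higher strain (horizontal axis, log scale) at 8 h (left) and 24 h (right). Gray points are the other genes tested, and pseudogenes are orange where higher in GMC101, blue where lower and black where not past the cut-off, with dotted lines at 2-fold. At 8 h 33 pseudogenes stood higher and 31 lower, and at 24 h 59 stood higher and 161 lower.

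At 24 h the balance was toward lower levels in GMC101. Of 606 pseudogenes tested, 161 were lower in GMC101 (26.6%) and 59 higher (9.74%). Of all 16757 genes tested, 12.5% were lower and 9.42% higher, or 22% in either direction. The median log2 ratio was -0.30 over the pseudogenes and -0.01 over all genes. The minimum was met in GMC101 only by 55 of the 606 and in CL2122 only by 85. Among the 466 with the minimum in both strains, 108 were lower (23.2%) and 25 higher (5.36%), against 10.3% and 7.06% of all genes so filtered. The 161 lower members summed to 332 CPM in GMC101 and 1051 in CL2122. The 59 higher members summed to 168 CPM in GMC101 and 63.1 in CL2122. With edgeR's exact test and a coefficient of variation set at 0.2, 71 were lower and 24 higher at 24 h, and 2 lower and 3 higher at 8 h. With 0.4 no pseudogene passed at either time, against 43 higher and 8 lower of all genes at 24 h.

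The lower share at 24 h exceeded that of coding genes in each level class. Between 10 and under 20 normalized counts, 21.4% of pseudogenes were lower in GMC101, against 14.9% of coding genes. The shares were 31.2% of pseudogenes and 18.6% of coding genes between 20 and under 50. Between 50 and under 200, 53 of 189 pseudogenes were lower, against 16.4% of coding genes. Between 200 and under 1000 they were 26.5% of pseudogenes and 12.8% of coding genes. Of the 16 pseudogenes with 1000 or more, 12.5% were lower, against 3.87% of coding genes. The higher share of the pseudogenes was 4.76% between 50 and under 200, against 13.5% of coding genes, and 2.56% between 200 and under 1000, against 7.29%. In the other classes it was not so reduced. It was 13.6% against 12.8% between 10 and under 20, and 18.8% against 19.3% between 20 and under 50. With 1000 or more it was 6.25% against 4.0%. Non-coding RNA genes also stood low, with 34.0% of 144 lower in GMC101 and 6.94% higher.

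**Figure D2:**
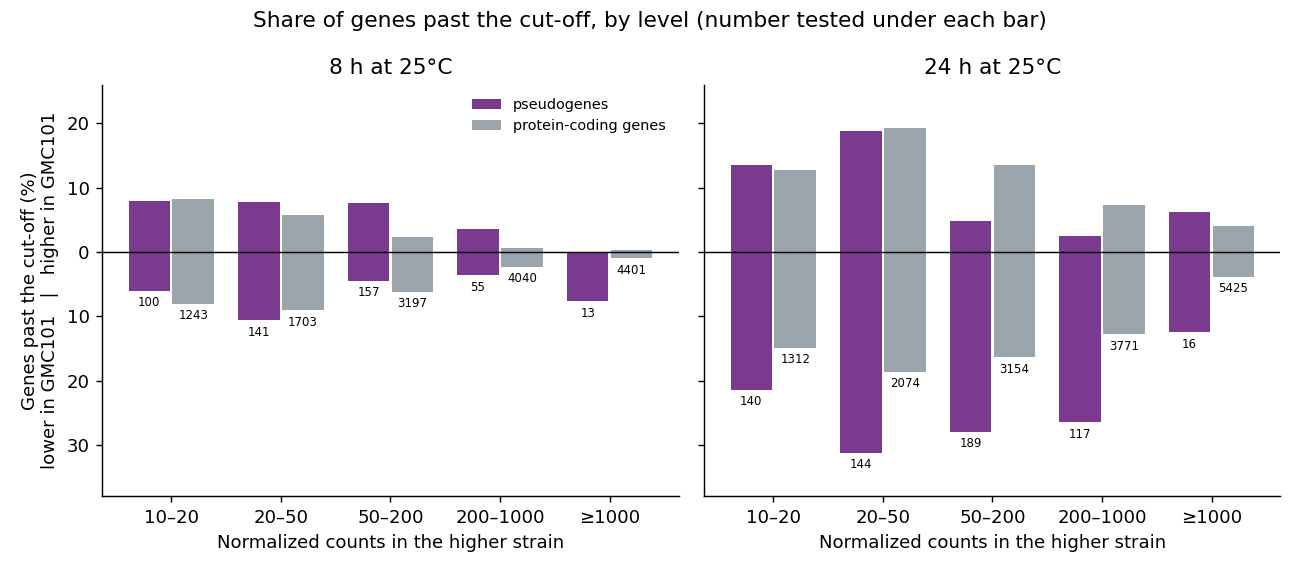
Percentage of genes past the cut-off (vertical axis), higher in GMC101 above the 0 line and lower in GMC101 below it, in 5 classes of normalized counts in the higher strain, for pseudogenes (purple) and protein-coding genes (gray) at 8 h (left) and 24 h (right). Numbers give the genes tested. At 24 h the purple bars reach further down than the gray ones in every class, for example 26.5% against 12.8% between 200 and under 1000.

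The strains also differed at 24 h in genes that mark tissues, and the part of this in the pseudogene ratios was not tested. Of 32 sperm markers tested, 28 were higher in GMC101. These 28 were spe-11 and genes of the msp family. The markers spe-9 (log2 ratio -0.39), spe-41 (-0.28), fer-1 (-0.20) and spe-42 (0.01) did not pass. The sperm list summed to 291 CPM in GMC101 and 74.5 in CL2122. In it spe-38 was at 0 in CL2122 and 1 of the 34 was not listed at 24 h. At 8 h none of 33 sperm markers passed and the sum was 3578 in GMC101 and 2892 in CL2122. Of 12 intestine markers 8 were higher at 24 h (42746 CPM in GMC101 and 22140 in CL2122). These 8 were vit-1, vit-3, vit-4, vit-5, vit-6, cpr-6, mtl-2 and act-5. The markers vit-2 (0.63), elt-2 (-0.18), ges-1 (-0.03) and asp-1 (-0.43) did not pass. Of 12 body wall muscle markers 6 were higher (4927 in GMC101 and 2728 in CL2122). These included unc-54, with a log2 ratio of 1.17. Both strains carry mtl-2:GFP, and the Aβ construct of GMC101 holds the unc-54 3′-UTR. Whether transgene reads fell on mtl-2 or unc-54 was not tested. None of 16 oocyte and eggshell markers passed at 24 h, with a median log2 ratio of 0.69 and sums of 12849 CPM in GMC101 and 9059 in CL2122. None of 10 neuron markers passed (628 in GMC101 and 718 in CL2122), and of 8 hypodermis markers 3 were higher and 1 lower (692 in GMC101 and 144 in CL2122). Among the hypodermis markers col-19 alone had 15577 reads in GMC101 against 1447 in CL2122. The markers elt-3 (-0.41), dpy-7 (-0.88), dpy-13 (-0.16) and nhr-23 (0.21) did not pass. No other listed marker was at 0 in any column. At 8 h, 4 of the 8 hypodermis markers and 1 of the 12 intestine markers were lower in GMC101, and none of the muscle, oocyte or neuron markers passed. The muscle list then summed to 8300 CPM in GMC101 and 10251 in CL2122, and the intestine list to 47659 in GMC101 and 57112 in CL2122. In whole worms, fewer cells of a type and less RNA per cell cannot be told apart.

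Among the 8 largest falls at 24 h with at least 50 normalized counts, dct-10 had the most reads. dct-10 (chromosome V from 20506503 to 20509510), named for control by the FOXO factor DAF-16, had 3.44 CPM in GMC101 and 27.5 in CL2122, a log2 ratio of -2.81 (-3.15 to -2.48). At 8 h it had 0.390 CPM in GMC101 and 0.755 in CL2122. Y38H6C.7, a short pseudogene nearby with the largest of these falls, had 0.396 CPM in GMC101 and 4.07 in CL2122, a log2 ratio of -3.17 (-4.28 to -2.23). Its coding neighbor Y38H6C.8, 69 bases away, was also lower, with a log2 ratio of -2.60. W09C5.3 on chromosome I had 0.554 CPM in GMC101 and 3.66 in CL2122, a log2 ratio of -2.53 (-3.46 to -1.71), while its neighbor unc-59 stood at 0.15.

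Others of the largest falls overlap coding exons, whose reads may be shared. The chemoreceptor copy sri-59 had 0.435 CPM in GMC101 and 2.44 in CL2122, a log2 ratio of -2.30 (-3.37 to -1.36). It overlaps the coding chemoreceptor sri-57 on the same strand, which had a ratio of -1.77. Y77E11A.22 had 0.751 CPM in GMC101 and 3.82 in CL2122 and fell by 2.16 on the log2 scale. Its same-strand partner Y77E11A.23 fell by 1.88. F55C9.12 fell by 2.23, and F55C9.5 on the other strand of it by 2.91. The chemoreceptor copy str-179, which overlaps no other exon among those searched, had 0.831 CPM in GMC101 and 4.76 in CL2122, a log2 ratio of -2.33 (-3.07 to -1.65).

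The largest rises at 24 h with at least 50 normalized counts included pseudogenes beside sperm genes. C04G2.3 (chromosome IV from 10093061 to 10093511), 1922 bases from the major sperm protein gene msp-36, had 3.32 CPM in GMC101 and 0.325 in CL2122, a log2 ratio of 3.54 (2.50 to 4.80). At 8 h its level was 26.3 CPM in GMC101 and 19.7 in CL2122. T13F2.9 (chromosome IV from 9768057 to 9768984), 903 bases from msp-79, had 20.8 CPM in GMC101 and 4.96 in CL2122, a log2 ratio of 2.26 (1.97 to 2.55). T13F2.9 had 3514 reads in GMC101 against 2163 in CL2122 at 8 h, while the 24 h values came from 525 reads in GMC101 and from 122 in CL2122. F55C5.2, 179 bases from ssp-35 of a sperm-specific family, had 2.69 CPM in GMC101 and 0.651 in CL2122, a log2 ratio of 2.24 (1.44 to 3.12). Their sperm gene neighbors msp-36, msp-79 and ssp-35 had log2 ratios of 2.31, 2.96 and 2.07.

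In all, 14 members lay within 10 kb of a gene with an msp, ssp, ssq or nspd symbol, a distance chosen after the values were seen. Of the 8 tested at 24 h, 6 were higher in GMC101 and 0 lower, and the 8 summed to 36.1 CPM in GMC101 and 13.3 in CL2122. Of the 598 tested farther away, 53 were higher and 161 lower. At 8 h the 14 summed to 227 CPM in GMC101 and 137 in CL2122, and 2 of 14 were higher. T13F2.9, described above, made up most of the 8 h sums in both strains and of the 24 h sum in GMC101.

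Other rises at 24 h had no sperm gene so near. grd-17, a copy of the hedgehog-related groundhog genes, had 3.48 CPM in GMC101 and 0.936 in CL2122, a log2 ratio of 2.09 (1.41 to 2.82), and 1 read in each strain at 8 h. F54D11.3, 137 bases from the phosphocholine synthesis gene pmt-2, had 9.18 CPM in GMC101 and 2.56 in CL2122, a log2 ratio of 2.03 (1.62 to 2.46), while pmt-2 stood at 0.77. The F-box copy fbxa-191 had 9.61 CPM in GMC101 and 3.05 in CL2122, a log2 ratio of 1.85 (1.47 to 2.24). Its coding neighbor fbxa-192 of the same family had a ratio of 1.82. C46E10.9 rose by 1.45 and shares exonic bases on its strand with C46E10.8, which rose by 1.45 as well.

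**Figure D3:**
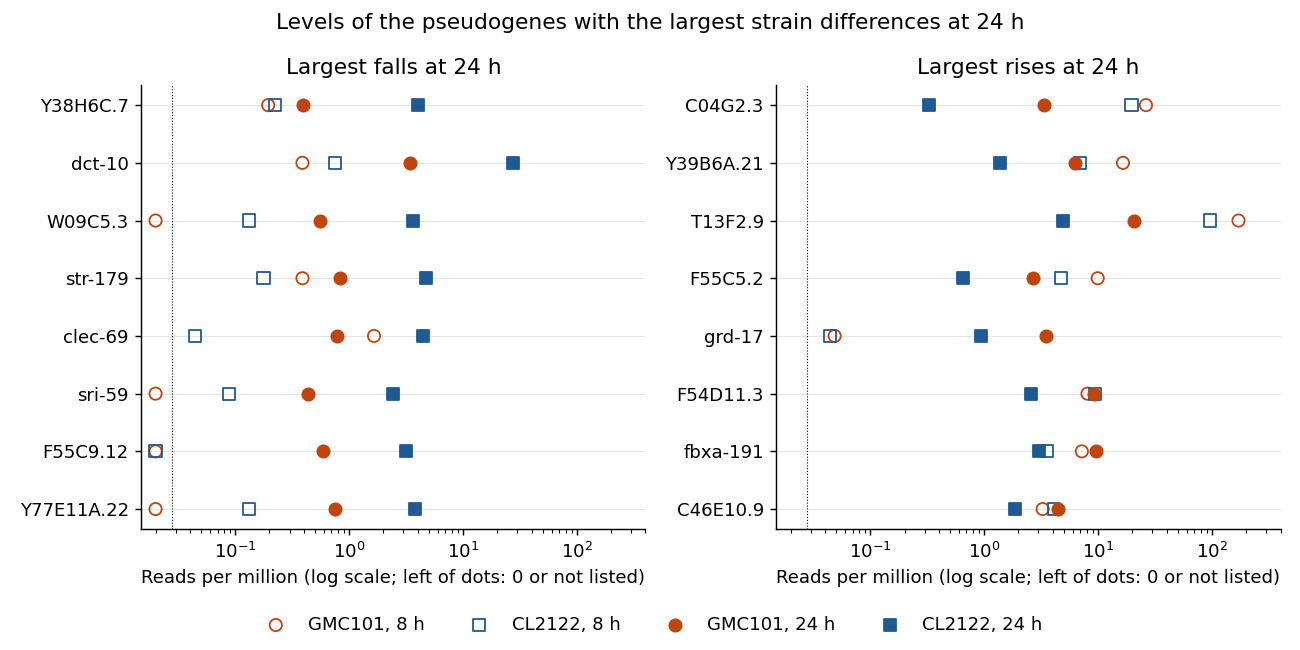
CPM (horizontal axis, log scale) of the 8 pseudogenes with the largest falls (left) and the 8 with the largest rises (right) at 24 h, in GMC101 (orange circles) and CL2122 (blue squares), open at 8 h and filled at 24 h, with points left of the dotted line at 0 or not listed. Filled squares lie right of filled circles for all falls, for example 27.5 against 3.44 for dct-10, and left of them for all rises.

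Among the symbol families, the chemoreceptor pseudogenes had 19 members lower in GMC101 at 24 h. Chemoreceptors are the 7-pass receptors with which worm neurons sense odors and tastes. Of 30 chemoreceptor pseudogenes tested, 19 were lower in GMC101 and 3 higher, with a median log2 ratio of -1.55. Of 238 coding chemoreceptors, 114 were lower and 13 higher, with a median of -1.21. The minimum was met only in CL2122 by 14 of the 30 and only in GMC101 by 2, so that the filter itself favored a difference in them. Of the 14 with the minimum in both strains, 8 were lower and 1 higher, against 47 lower and 3 higher of 115 coding chemoreceptors so filtered. At 8 h only 5 were tested, 1 higher and 1 lower, and all 31 summed to 4.63 CPM in GMC101 and 3.82 in CL2122. They were thinly covered, and str-179 and sri-44 were the best measured of the 19. sri-44 had 55 reads in GMC101 against 133 in CL2122, a log2 ratio of -1.12 (-1.60 to -0.66). srd-52 had 9 reads in GMC101 against 45 in CL2122, and str-183 had 11 in GMC101 and 49 in CL2122. The 3 that rose were srd-14 (36 reads in GMC101 against 16 in CL2122), srsx-20 (13 and 4) and srh-188, which had 20 reads in GMC101 against 0 in CL2122, a level at least 7.40-fold higher.

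F-box, MATH and BTB pseudogenes were set out by subfamily. Of 56 tested at 24 h, 15 were lower in GMC101 (26.8%, near the 26.6% of all pseudogenes) and 3 higher. Of 353 coding genes of these families, 155 were lower and 11 higher. Among the fbxb copies 4 of 6 were lower, against 92 of 102 coding fbxb genes. Among the fbxc copies 4 of 5 were lower, against 21 of 38 coding fbxc genes. The larger fbxa group had 4 lower and 3 higher of 33, against 24 lower and 9 higher of 134 coding genes. Of the bath copies 2 of 7 were lower, against 4 of 36 coding genes, and of the math copies 0 of 3, against 7 of 27. With the minimum in both strains, 14 of 49 members of these families were lower and 1 higher, against 140 lower and 4 higher of 316 coding genes. fbxb-94 had 59 reads in GMC101 against 225 in CL2122, a log2 ratio of -1.78 (-2.22 to -1.36), and fbxc-57 had 97 in GMC101 and 316 in CL2122, a log2 ratio of -1.55 (-1.90 to -1.22). The 6 fbxb copies summed to 10.5 CPM in GMC101 and 28.6 in CL2122 at 24 h, against 0.877 in GMC101 and 1.95 in CL2122 at 8 h.

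C-type lectin copies went both ways at 24 h, with 4 of 10 higher and 4 lower, and 1 each way among the 4 with the minimum in both strains. clec-236 had 27 reads in GMC101 against 2 in CL2122, a log2 ratio of 3.91 (1.91 to 7.02), while clec-69 had 20 in GMC101 and 110 in CL2122, a log2 ratio of -2.31 (-3.08 to -1.61). Of 138 coding C-type lectins, 40 were higher and 22 lower. None of 5 nuclear hormone receptor copies passed at 24 h, with log2 ratios of -0.995 to -0.10, against 53 of 201 coding receptors lower. The Dicer-related helicase copy drh-2 had 60.8 CPM in GMC101 and 30.2 in CL2122 at 8 h, a log2 ratio of 0.98 just under the cut-off, and -0.07 at 24 h. The kinesin copy klp-10 had log2 ratios of -0.01 and 0.41.

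**Figure D4:**
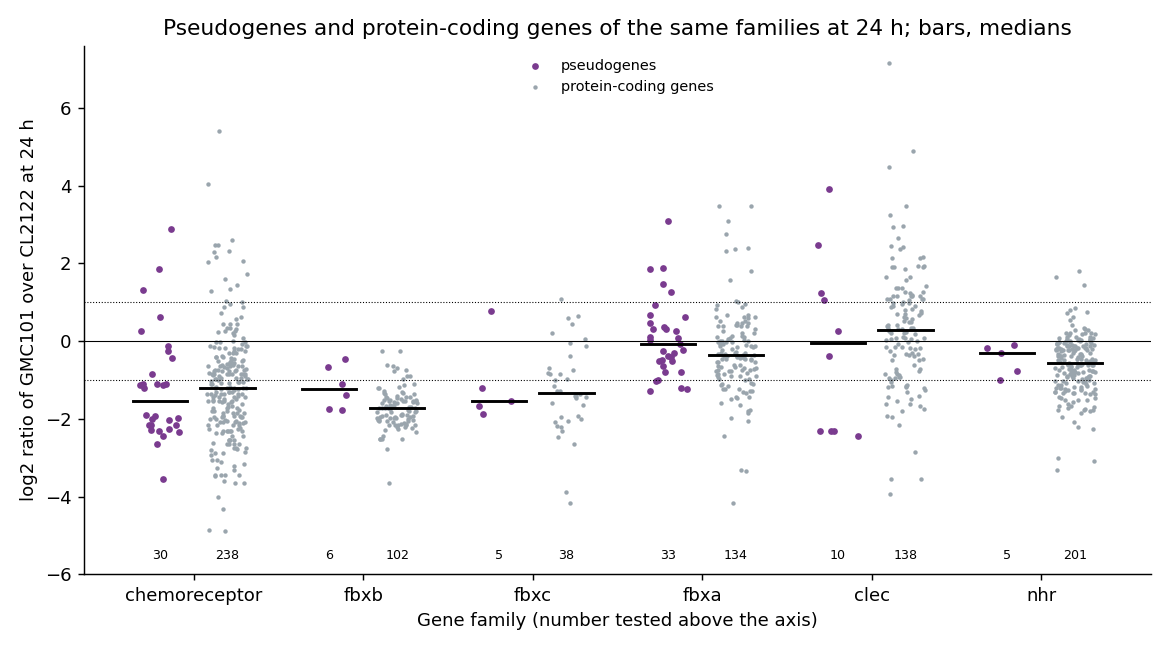
Log2 ratio of GMC101 over CL2122 at 24 h (vertical axis) for single pseudogenes (purple) and protein-coding genes (gray) of 6 symbol families, with medians as black bars, dotted lines at 2-fold and the numbers tested above the axis. Most chemoreceptor, fbxb and fbxc points lie below 0 in both classes, with medians of -1.55, -1.24 and -1.55 for the pseudogenes.

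Genes of the pathways known to act on pseudogene RNA were set beside all genes. Of 9 nonsense-mediated decay genes, none passed at 8 h, and at 24 h only smg-1, the kinase of the pathway, was lower. It had 1850 normalized counts in GMC101 against 4039 in CL2122, a log2 ratio of -1.13 (-1.21 to -1.05). Of 26 small RNA silencing genes tested, none passed at 8 h and 1 was lower at 24 h. This was nrde-3, a nuclear Argonaute, with 1481 normalized counts in GMC101 against 3074 in CL2122, a log2 ratio of -1.05 (-1.14 to -0.96). The medians at 24 h were 0.03 for nonsense-mediated decay and -0.08 for small RNA silencing, against -0.01 for all genes tested.

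Several lower members at 24 h followed each other along a chromosome or lay beside lower coding genes. By chromosome, 35.5% of the 121 tested members on II and 33.3% of the 168 on V were lower in GMC101, against 16.5% and 18.2% of all genes there. The share of all genes on V includes the region left out of the pseudogenes. On I 25.9% of 81 and on IV 20.3% of 123 were lower, against 8.72% and 8.98% of all genes. On III 7 of 63 and on X 9 of 50 were lower, against 7.63% and 12.9% of all genes. Of 143 pairs of tested members that followed each other within 10 kb, 27 were lower together (18.9%), 0 higher together and 2 opposite. Of 14583 such pairs of coding genes, 3.68% were lower together and 2.35% higher together, where 11.4% of single coding genes and 26.6% of single pseudogenes were lower. At 8 h 2 of 91 pseudogene pairs were lower together, 1 higher together and 0 opposite. Runs of 3 or more lower members included T26H2.10, T26H2.11, T26H2.12, F21D9.6 and F21D9.5 on chromosome V from 19223853 to 19251089, with log2 ratios of -2.01 to -1.43. Another was C24H12.7, C24H12.9, C24H12.11 and C24H12.3 on chromosome II from 419178 to 432732, with ratios of -1.70 to -1.26. In that run C24H12.11 had 10.8 CPM in GMC101 and 30.8 in CL2122. dct-10, Y38H6C.7 and fbxa-149 formed another on chromosome V from 20506503 to 20518036.

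The nearest coding gene was measured for 480 of the members tested at 24 h. Of 127 lower members among them, 59 had a lower coding neighbor (46.5%) and 5 a higher one, and of 43 higher members 19 had a higher neighbor (44.2%). Over all 480 pairs, 110 neighbors were lower (22.9%) and 48 higher. Across these pairs Spearman's rho was 0.41 and Pearson's r was 0.37, a description over genes that share the same 2 libraries. Within 1000 bases rho was 0.48 over 295 pairs, and beyond it was 0.26 over 185. At 8 h rho was 0.14 over 334 pairs.

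Between the times the levels were set side by side in CPM. The 2 tables were normalized separately and the time points may be separate batches, so a batch and the time cannot be told apart here. In GMC101 122 of 540 pseudogenes tested were higher at 24 h than at 8 h (22.6%) and 93 lower (17.2%), against 14.7% and 13.8% of all genes. In CL2122 193 of 551 were higher at 24 h (35.0%) and 92 lower (16.7%), against 25.6% and 15.3%. Over all genes the median log2 ratio of 24 h over 8 h was 0.15 in GMC101 and 0.32 in CL2122. CPM leaves this shift in the counts. Over the pseudogenes the median was 0.27 in GMC101 and 0.51 in CL2122. Of the 161 members lower in GMC101 at 24 h, 118 had a ratio between the times in CL2122 and 92 in GMC101. In CL2122 103 of the 118 were higher at 24 h than at 8 h and 0 lower. In GMC101 58 of the 92 were higher and 7 lower. The sum of all 161 at 24 h was 332 CPM in GMC101 and 1051 in CL2122, against 90.3 in GMC101 and 119 in CL2122 at 8 h. Of the 59 members higher in GMC101 at 24 h, 49 had a ratio between the times in CL2122 and 56 in GMC101. Of these, 37 were lower at 24 h than at 8 h in CL2122 and 22 in GMC101. The members were chosen here by their 24 h ratio, so the larger gap at 24 h was fixed by that choice.

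Of 413 pseudogenes with the minimum at each time, 10 were higher (2.42%) and 9 lower (2.18%) in GMC101 at both. Of all 14669 genes with the minimum at each time, 0.607% were higher and 1.39% lower at both. Of the 413, 24 were higher and 28 lower at 8 h, and 51 were higher and 55 lower at 24 h. Y39B6A.21 had 6.29 CPM in GMC101 and 1.38 in CL2122 at 24 h, and its log2 ratio was 1.21 at 8 h and 2.38 at 24 h. F55C5.2 had ratios of 1.03 and 2.24. K02E7.6 had 19.2 CPM in GMC101 and 55.2 in CL2122 at 24 h, and its ratio was -1.39 at 8 h and -1.33 at 24 h, with btb-10 at -1.68 at 24 h. F56D6.16 had ratios of -1.01 and -1.14. Also higher at both times were clec-236, clec-152, W03D8.10, Y69A2AR.14, T08G3.4 and C25D7.2, C25D7.2 with 12 reads in GMC101 against 0 in CL2122 at 24 h, a level at least 4.44-fold higher. With reads scaled to the library totals, the 24 h calls of clec-152 (1.04) and Y69A2AR.14 (1.11) ended, as did the 8 h call of F56D6.16 (-0.98). With a pseudocount of 5 the same 3 calls ended, and also the 8 h call of F55C5.2. None of these 4 genes passed at 8 h with the counting interval wholly beyond 2-fold. Passing in opposite directions were 4 members (0.969%, against 0.593% of all genes), lips-14, clec-69, Y38H6A.4 and C25D7.12. lips-14 had 40 reads in GMC101 against 1 in CL2122 at 24 h, a log2 ratio of 5.47 (2.91 to 10.81), against -2.46 at 8 h.

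**Figure D5:**
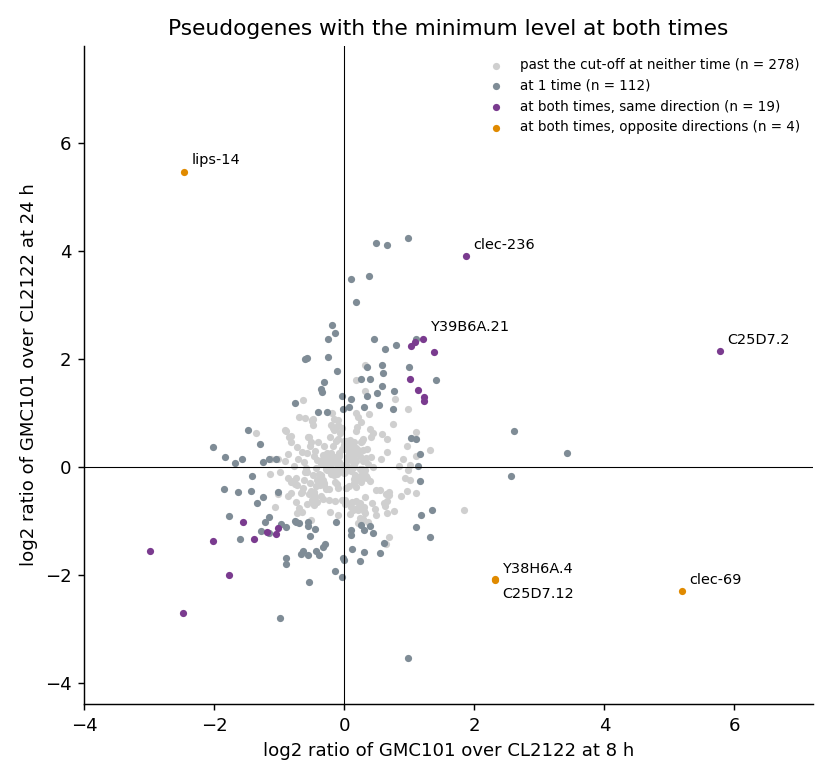
Log2 ratio of GMC101 over CL2122 at 24 h (vertical axis) against that at 8 h (horizontal axis) for the 413 pseudogenes with the minimum level at both times. Purple points passed in the same direction at both times (19), orange points in opposite directions (4), dark gray points at 1 time (112) and light gray points at neither (278).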

How the data were processed

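RNA-seq of whole worms of GMC101 and CL2122 was made by the authors in paired reads of 150 bp after 8 h and 24 h at 25°C. Per the labels' processing notes, HISAT2 2.05, StringTie 1.33 and DESeq2 are named, and the genome build is not given in the sources used here. The deposited tables hold 1 expression signal per gene and strain, read counts that were multiplied by 1 factor per column. The factor was 1.0351 in GMC101 and 0.9661 in CL2122 at 8 h, and 1.0535 in GMC101 and 0.9492 in CL2122 at 24 h. Scaling to the library totals alone was run as an alternative and gave other ratios. The tables also hold log2 fold changes and p-values, plain and adjusted, of the authors' own comparison, which were not used. The sources used here do not say how the samples were merged into 1 column. Each signal value was divided by the worth of 1 read, and 100.0% of values came out within 0.25 of a whole read. The limit of 3 reads, which a count of 0 allows, was 0.119 to 0.146 CPM (counts per 1000000 reads on genes).

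With 1 column per strain and time there is no replicate spread, so no p-value is given, and the count test planned for replicates was replaced by exact counting intervals (95%). The calls were also made on simulated counts, in which some genes were changed and the rest were not. Where a coefficient of variation of 0.2 was added to the counting error, many unchanged genes passed as well. The simulation therefore does not show that a call exceeds the spread between worm cultures. On the recovered reads, edgeR's exact test with an assumed coefficient of variation of 0.2 passed 3 pseudogenes higher and 2 lower at 8 h (45 and 111 of 15281 genes), and 24 higher and 71 lower at 24 h (881 and 1021 of 16757 genes).

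Levels across times are CPM. Named genes were the 10 highest members, the 8 largest rises and falls at each time among those reaching 50 normalized counts, those past the cut-off at both times, and those beside the minimum. Members named for a family, run or neighbor, or for opposite directions, were chosen after their values were seen. The members, gene lists and families were chosen with earlier results of these data known. Gene positions and overlaps came from the Ensembl annotation. No genome or sequence table was used here, so sequences and likeness to coding genes were not analysed. Software was edgeR 4.0.16 and, for an alternative scaling, DESeq2 1.42.0 in R 4.3.3, with scipy 1.17.1, pandas 2.3.3, numpy 2.4.6 and, for plots, matplotlib 3.10.9 in Python 3.11.15.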

Additional observations from a re-analysis of the deposited data

Results flagged for a closer look

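For 4 pseudogenes the strain ratio passed in opposite directions at 8 h and 24 h, and the difference between the times was not tested. The log2 ratio of GMC101 over CL2122 was 5.19 at 8 h and -2.31 at 24 h for clec-69, and -2.46 at 8 h and 5.47 at 24 h for lips-14. For C25D7.12 it was 2.32 at 8 h and -2.07 at 24 h. For Y38H6A.4 it was 2.32 at 8 h, a bound since CL2122 had 0 reads, and -2.10 at 24 h. A column with 3 reads or fewer stood in each of these ratios at 1 time, and for C25D7.12 at both times.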

How the results depend on the processing

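The main counts were 33 rises and 31 falls at 8 h, 59 and 161 at 24 h, and 19 in the same and 4 in opposite directions at both times, and they depended on the minimum and on the cut-off. With a minimum of 50 normalized counts they were 14 and 10 at 8 h, 13 and 86 at 24 h, 4 in the same direction and 0 opposite, and with a minimum of 20 the opposite ones were 2. With both strains at the minimum, an alternative chosen after seeing the data, they were 21 higher at 8 h, 25 higher at 24 h, 8 in the same direction and 0 opposite. With the counting interval wholly beyond 2-fold they were 4 and 6 at 8 h, 23 and 59 at 24 h, and 4 in the same direction. A pseudocount of 5 left 10 in the same direction. With edgeR's exact test at a coefficient of variation of 0.2 they were 3 and 2 at 8 h, 24 and 71 at 24 h, 2 in the same direction and 2 opposite, and at 0.4 all 6 counts were 0. Of members whose nearest coding gene lay beyond 1000 bases, also chosen after seeing the data, 7 were higher and 13 lower at 8 h, 14 and 52 at 24 h, 4 in the same direction and 1 opposite. Scaled to the library totals, 41 were higher and 190 lower at 24 h, and the share of called genes that were higher moved to 17.7% of the pseudogenes, against 26.8%, and to 31.7% of all genes, against 42.9%. That scaling put the 24 h median of all genes at -0.196 on the log2 scale, and turned the sign of F07H5.5 (-0.060), prg-2 (-0.18), F56D5.4 (-0.15), Y102A5C.5 (-0.049) and Y102A5C.6 (-0.10) at 24 h. No paired analysis was possible because the columns carry no replicate, and for the same reason none was left out in turn. The alternative without near-identical coding relatives was not run, since no sequences were used here. Low depth limits most members, and the cause of these changes was not tested.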
